A study of Mus musculus with 24 samples.

Results

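Snord49a, Snord49b and Snord65 are 3 small nucleolar RNAs (snoRNAs) of the box C/D class, encoded in the introns of a single noncoding gene on mouse chromosome 11. They were taken as the rows of the deposited count table whose Ensembl identifiers carry these names in GENCODE M21, which gave 3 of 55335 genes. Together they held 18.7% of all 25027120 counts. They were selected on measured values: Snord49a had been called lower in Htt knockout than in wild-type neural progenitor cells in earlier results on these data, and the other members were added as its neighbours in the same host. Values in that contrast are therefore given only as a description. No threshold was used beyond the names. The series concerns the CAG repeat of Htt, the huntingtin gene, and splicing, and sequenced small RNA from 2 cell types. Mouse embryonic stem cells (mESC) were grown with leukemia inhibitory factor on irradiated mouse embryonic fibroblasts as feeders. Neural progenitor cells (NPC) were derived from them and kept on laminin with FGF and EGF. Each cell type was represented by Htt knockout (KO) cells, wild-type (WT) cells and 4 lines with a heterozygous knock-in allele, Q20, Q50, Q92 or Q111, named for the number of CAG repeats. The sample titles give 92 repeats for the Q92 line and the growth protocol gives 89. Each of the 12 groups had 2 libraries, which the series text calls biological samples. The labels name no clones, and each genotype appears as 1 line, so effects of the genotype and of the line itself cannot be told apart.

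Box C/D snoRNAs are cut out of spliced introns and assembled with fibrillarin, Nop56, Nop58 and Snu13. They base-pair with other RNAs, mostly ribosomal RNA, and direct fibrillarin to methylate the 2′-hydroxyl of a chosen ribose. Snord49a and Snord49b are known as guides for the RNA of the large ribosomal subunit (28S), and Snord65 for that of the small subunit (18S). Because introns of a host are transcribed together, the snoRNAs of 1 host start from a shared precursor, while each is trimmed and protected from decay separately.

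The 3 sequences are shown because they are the measured RNAs themselves and because their likeness decides whether short reads can tell them apart. They are the GENCODE M21 transcripts, written 5′ to 3′ as DNA of the plus strand of GRCm38. Capitals mark TGATGA, the letters of box C, and the last CTGA, the letters of box D.
Snord49a: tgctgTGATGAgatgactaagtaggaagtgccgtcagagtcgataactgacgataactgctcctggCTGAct
Snord49b: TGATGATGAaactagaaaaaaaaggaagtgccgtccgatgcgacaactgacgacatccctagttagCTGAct
Snord65: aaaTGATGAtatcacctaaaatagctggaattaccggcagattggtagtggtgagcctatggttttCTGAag
Snord49b holds 2 overlapping copies of TGATGA at its first base. A further CTGA lies at bases 47 to 50 of Snord49a and of Snord49b, and Snord65 holds none besides the last. Both motifs were searched on the strand of the RNA alone. Of the 21 annotated snoRNA transcripts of the same length, 72 bases, 76.2% held TGATGA and 90.5% held CTGA.

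Snord49a and Snord49b were alike in sequence, with 54 identical bases over 78 aligned positions (69.2%). Their longest shared run was aggaagtgccgtc, at bases 23 to 35 of both. Snord65 matched Snord49a over 56.2% and Snord49b over 56.4% of aligned positions, with shared runs of at most 7 bases. None of the 43 stretches of 30 bases in each member was found in another annotated gene, so a read of 30 bases or more within a member has no second annotated match. Copies outside annotated transcripts were not searched. In Snord65, bases 23 to 36 (agctggaattaccg) were complementary to Gm42418, a noncoding gene that overlaps a ribosomal RNA repeat.

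All 3 lie on the plus strand within 2410006H16Rik (ENSMUSG00000086841), a processed transcript of 5 exons at chr11:62602877-62604807 in GRCm38. Snord49b (ENSMUSG00000064437) lies in intron 1 at chr11:62603079-62603150, and its end is 84 bases from the next exon. Snord49a (ENSMUSG00000065734) lies in intron 2 at chr11:62603450-62603521, with its end 75 bases from the next exon. Snord65 (ENSMUSG00000077457) lies in intron 4 at chr11:62604515-62604586, with 68 bases to the next exon. No other annotated gene lies inside the host. The snoRNAs thus share their length and a similar distance to the downstream splice site, while their levels differed widely. Over the 24 libraries Snord49a had 2887889 counts, Snord65 had 1554317 and Snord49b had 227035. The host had 158 counts in all, 4 to 28 in the mESC libraries and 0 to 6 in the NPC libraries.

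**Figure D1:**
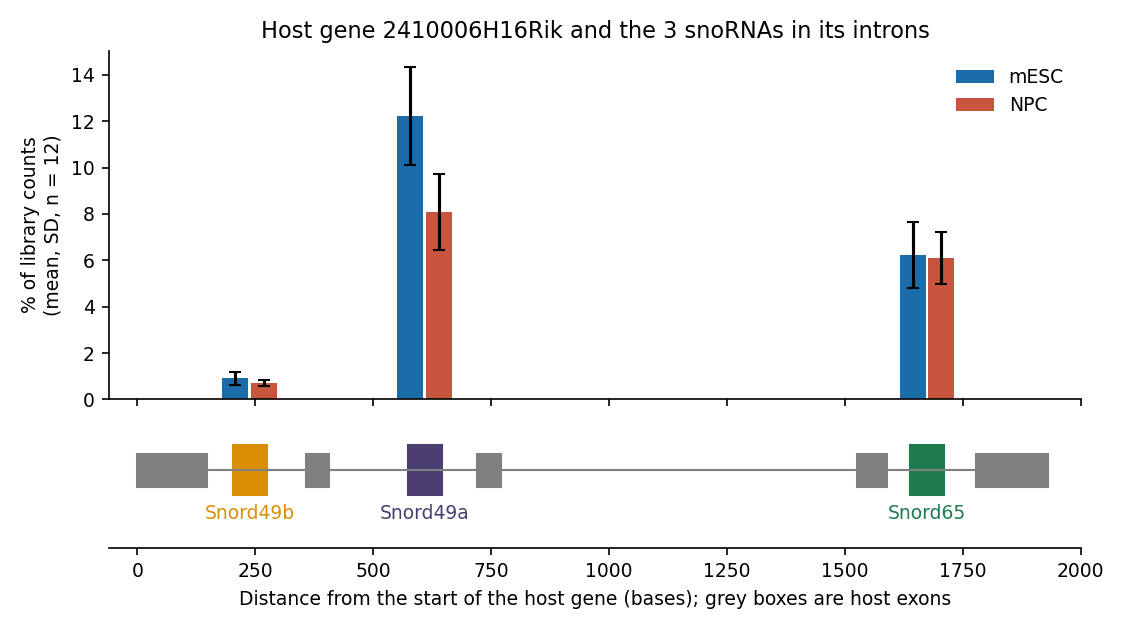
Top: mean share of library counts (%) of each snoRNA in mESC and NPC, with the SD over 12 libraries as error bars. Bottom: the exons of the host and the 3 snoRNAs, by distance from the start of the host in bases. The order of levels does not follow the order along the host: the first snoRNA, Snord49b, had the lowest level.

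Library totals ran from 642384 to 2360434 counts in mESC and from 342022 to 682113 in NPC. Htt had 3 and 2 counts in the KO and 8 and 8 in the WT mESC libraries, and 1 and 1 against 9 and 2 in NPC, too few to check the labels firmly. The 16 listed stem cell markers found in the count table summed to 946 to 3681 CPM (counts scaled to a common library size) in mESC. In NPC they summed to 426 and 445 CPM in the Q20 libraries and to 4.23 to 13.7 CPM in the other lines. Of the 16, 12 had counts in NPC, while Mir294, Nanog, Zfp42 and Dppa5a were at 0 in all NPC libraries. The 14 listed neural markers found in the count table summed to 2.19 to 12.5 CPM in mESC. In NPC they summed to 172 and 212 CPM in the Q20 libraries, the lowest, and to 306 to 798 CPM in the other lines. Of these 14, 9 had counts in mESC and 12 in NPC, with Mir9-2 and Mir124a-1 at 0 in both cell types. A list of 10 fibroblast markers stayed between 2.20 and 24.9 CPM in all libraries, with Mir199a-1, Mir199a-2 and Mir214 at 0 throughout. Col1a1, Col1a2 and Col3a1 were also at 0 in mESC but not in NPC, and Thy1 was at 0 in NPC but not in mESC. The Y RNA Rny1 took 0.644% to 1.65% of counts in mESC and 13.0% to 40.3% in NPC, while genes with a Snord symbol took 43.8% to 51.1% and 28.6% to 42.7%. A share of counts depends on the other RNAs of the library, and fewer cells of a type and less RNA per cell cannot be told apart in bulk libraries.

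Snord49a, the most abundant member, ranked first or second of all genes in every mESC library. In mESC it took 11.9% and 9.15% of counts in KO, 11.2% and 9.02% in WT, 15.2% and 14.6% in Q20, 10.8% and 13.3% in Q50, 13.7% and 11.4% in Q92, and for Q111 14.9% and 11.3%. In NPC the values were 7.02% and 8.13% in KO, 8.41% and 9.92% in WT, 7.96% and 8.06% in Q20, 6.18% and 5.06% in Q50, 7.61% and 7.57% in Q92, and for Q111 10.3% and 10.7%. The mESC mean was 12.2% ± 2.11 and the NPC mean 8.08% ± 1.64 (SD, n = 12 each). Both NPC libraries lay below both mESC libraries in 5 of 6 genotypes, and WT overlapped.

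Snord65 was the second member by level and changed least between cell types as a share of counts. In mESC it took 4.97% and 5.45% in KO, 5.65% and 5.92% in WT, 7.72% and 8.05% in Q20, 6.06% and 4.33% in Q50, 4.55% and 6.02% in Q92, and for Q111 6.91% and 8.97%. In NPC it took 5.26% and 6.19% in KO, 5.75% and 6.93% in WT, 6.42% and 6.61% in Q20, 4.90% and 4.22% in Q50, 5.66% and 5.53% in Q92, and for Q111 7.55% and 8.22%. The means were 6.22% ± 1.43 and 6.10% ± 1.13 (SD, n = 12 each). The cell types overlapped in 5 of 6 genotypes, Q20 being the exception.

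Snord49b, closest in sequence to Snord49a, was far less abundant in every library. Its mESC shares were 0.816% and 0.689% in KO, 0.899% and 0.710% in WT, 1.10% and 1.09% in Q20, 1.31% and 0.379% in Q50, 0.786% and 0.730% in Q92, and for Q111 1.18% and 1.13%. Its NPC shares were 0.563% and 0.677% in KO, 0.756% and 0.826% in WT, 0.667% and 0.841% in Q20, 0.592% and 0.509% in Q50, 0.745% and 0.629% in Q92, and for Q111 0.857% and 0.905%. The means were 0.901% ± 0.266 and 0.714% ± 0.127 (SD, n = 12 each). The second Q50 mESC library stood apart, with 2433 counts and a share whose 95% Wilson interval was 0.364% to 0.394%. The first Q50 library was 3.47-fold higher, so the gap far exceeded counting error. Such intervals cover counting error only, since reads without molecular identifiers are not independent molecules.

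**Figure D2:**
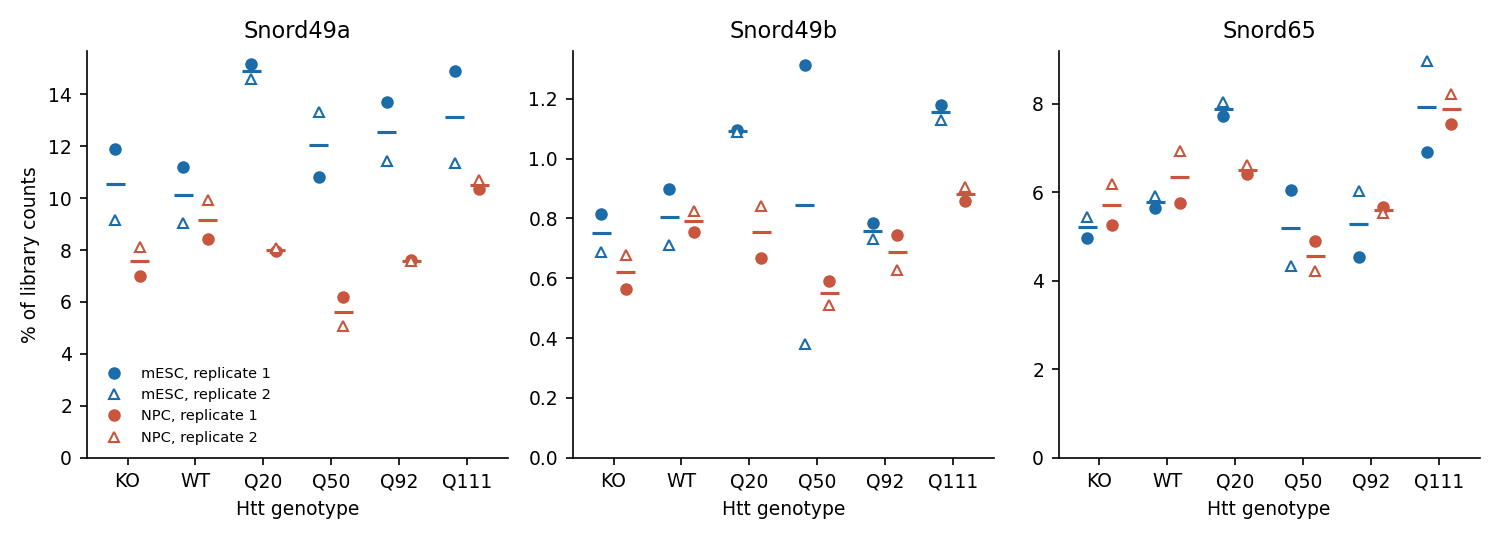
Share of library counts (%) of each member by Htt genotype, in mESC (blue) and NPC (red), with circles for replicate 1, triangles for replicate 2 and a line at the mean of 2. NPC points lie below the mESC points for Snord49a in every genotype but WT, whereas Snord65 overlaps in every genotype but Q20.

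The pooled spread between replicates was wider in mESC for all 3, though for Snord49b this rests largely on the Q50 pair. On the log2 scale the pooled replicate SD was 0.22 in mESC and 0.12 in NPC for Snord49a, 0.53 and 0.16 for Snord49b, and 0.22 and 0.13 for Snord65. The Q50 mESC replicates of Snord49b differed by 1.79, and the next widest mESC pair was WT, at 0.899% and 0.710% of counts. The largest NPC gap for Snord49b was 0.33, in Q20. For Snord49a and Snord65 the NPC lines could therefore be told apart more finely than the mESC lines.

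All 3 members were lower in NPC than in mESC when libraries were scaled by the trimmed mean of M values (TMM), and to unequal degrees. In edgeR's quasi-likelihood test over 904 genes, 58.4% of genes were called at a Benjamini-Hochberg adjusted p of 0.05, 30.4% higher and 28% lower, so a call by itself was ordinary here. Snord49a fell by 0.97 ± 0.11 on the log2 scale (SE, edgeR adjusted p 1.61e-07), Snord49b by 0.69 ± 0.16 (edgeR adjusted p 0.000801) and Snord65 by 0.36 ± 0.092 (edgeR adjusted p 0.00183). The median over all genes tested was -0.02. Without the Q20 group Snord49a was at -0.87 (edgeR adjusted p 2.14e-05), Snord49b at -0.60 (0.0110) and Snord65, no longer called, at -0.26 (0.0583). Leaving out single libraries, the second Q50 mESC library included, kept Snord49b between -0.87 and -0.48 (edgeR adjusted p 1.44e-06 to 0.00272).

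The size and sign of these changes depended on the filter and on what the libraries were scaled to. With no filter on low counts the TMM values were larger, at -1.55 for Snord49a, -1.30 for Snord49b and -0.94 for Snord65 (edgeR adjusted p 1.40e-26, 7.76e-14 and 2.44e-09). With library totals the median of all genes moved up by 0.34, and calls split into 350 higher and 159 lower in place of 275 and 253. On that scale Snord49a was at -0.61 (edgeR adjusted p 1.91e-07), Snord49b at -0.33 (0.0433) and Snord65 at -0.02 (0.842). Scaled to the summed counts of Snord genes, the median moved up by 0.72 and calls split into 474 higher and 104 lower. As a share of Snord counts Snord49a still fell by 0.21 (edgeR adjusted p 0.00269), Snord49b was at 0.07 (0.622), and Snord65 rose by 0.37 (0.000106). Snord65 was higher in both NPC libraries than in both mESC libraries on this scale in 6 of 6 genotypes. Snord49a was below in both NPC libraries in 4 of 6 genotypes, while WT and Q111 overlapped and had the higher mean in NPC (22.6% against 21.1% and 28.4% against 27.7%). Relative to the median of all genes under TMM, which removes the shared shift of a scaling, Snord49a was at -0.95, Snord49b at -0.67 and Snord65 at -0.34.

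**Figure D3:**
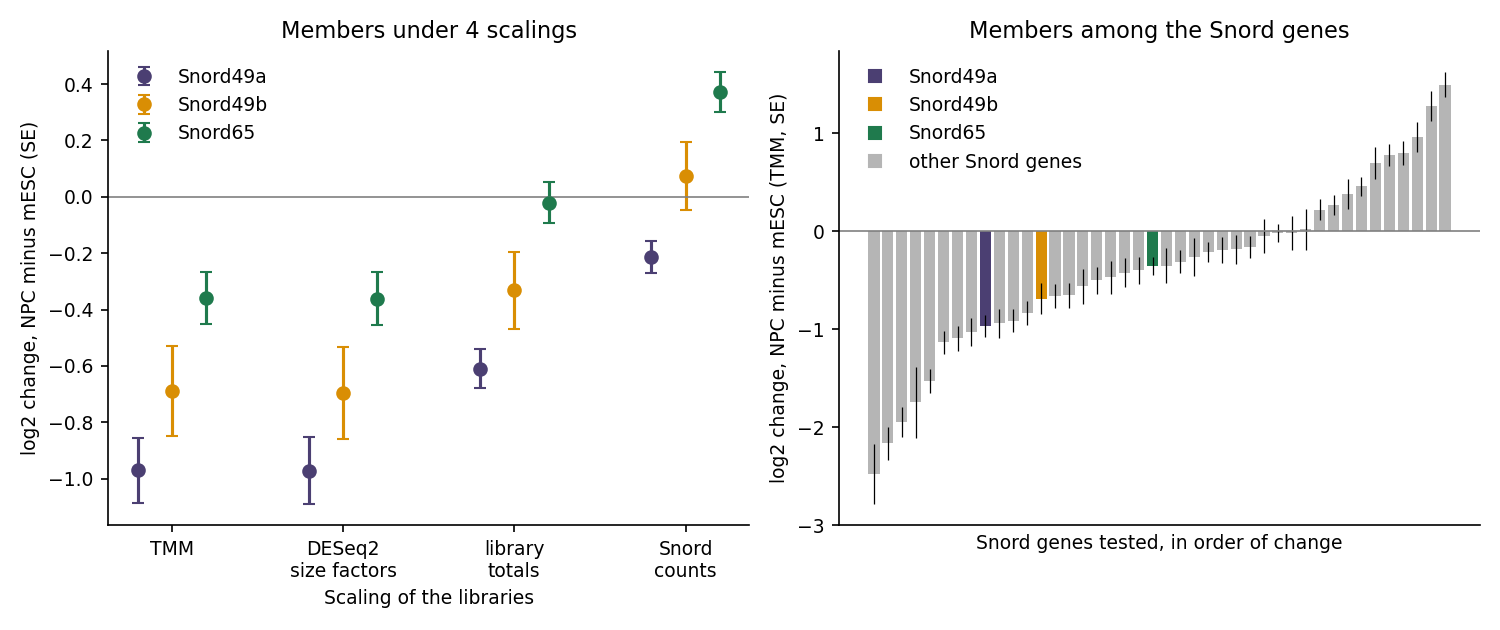
Left: log2 change of each member from mESC to NPC (SE as error bars) with libraries scaled by TMM, by DESeq2 size factors, by library totals or by the summed Snord counts. Right: the TMM changes of all Snord genes tested, in order, with the members in colour. A scaling shifts all genes together, and Snord65 goes from -0.36 with TMM to 0.37 with Snord counts.

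Ratios between members need no scaling, because both counts come from the same library. By mean ratio, Snord49a was lower relative to Snord65 in NPC in every genotype, while the Q111 libraries of the cell types overlapped. The ratio of Snord49a to Snord65 in mESC was 2.39 and 1.68 in KO, 1.99 and 1.52 in WT, 1.96 and 1.81 in Q20, 1.78 and 3.07 in Q50, 3.01 and 1.89 in Q92, and for Q111 2.15 and 1.26. In NPC it was 1.34 and 1.31 in KO, 1.46 and 1.43 in WT, 1.24 and 1.22 in Q20, 1.26 and 1.20 in Q50, 1.34 and 1.37 in Q92, and for Q111 1.37 and 1.30. Of the 12 mESC libraries 11 lay above all NPC libraries, the second Q111 library being the exception. The mean log2 ratio was 0.59 lower in NPC, a 0.665-fold ratio, with a two-sided exact permutation p of 0.000214 over 46656 exchanges of cell type within genotype (0.000643 adjusted over 3 ratios). Leaving out each library in turn gave -0.65 to -0.52, with exact permutation adjusted p from 0.000129 to 0.00180, and leaving out the Q20 group gave -0.58 (0.00386).

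The ratios that involve Snord49b differed less firmly. Snord49a to Snord49b ran from 8.23 to 35.1 in mESC (median 13.3) and from 9.58 to 12.5 in NPC (median 11.9). Libraries of the 2 cell types were apart in 4 genotypes and overlapped in Q111 and Q50. The difference in mean log2 ratio, lower in NPC in 5 of 6 genotypes, was 0.31 (exact permutation p 0.0280, adjusted 0.0280). Both mESC extremes were Q50 libraries. Without the second of them the difference was -0.14 (exact permutation adjusted p 0.110). Leaving out either Q50 NPC library, the first Q111 mESC or the first Q92 mESC library also ended the call (exact permutation adjusted p 0.0538 to 0.218), as did leaving out the Q20 group (0.0905).

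Snord65 to Snord49b ran from 4.61 to 11.4 in mESC (median 7.22) and from 7.60 to 9.61 in NPC (median 8.59). Libraries of the 2 cell types were apart in 3 genotypes and overlapped in Q50, Q92 and WT. The difference in mean log2 ratio, higher in NPC in 6 of 6 genotypes, was 0.27 (exact permutation p 0.0254, adjusted 0.0280). Without the first Q50 mESC library it was 0.16 (exact permutation adjusted p 0.131). The call was also lost without either Q50 NPC library, without the first Q111 or first Q92 mESC library (exact permutation adjusted p 0.0538 to 0.129) and without the Q20 group (0.0860).

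The members kept tighter proportions in NPC. The SD of the log2 ratio over 12 libraries was 0.37 in mESC and 0.089 in NPC for Snord49a to Snord65, 0.50 and 0.13 for Snord49a to Snord49b, and 0.34 and 0.11 for Snord65 to Snord49b. Of the members' summed counts, Snord49a made up 52.9% to 73.8% in mESC and 51.7% to 56.4% in NPC. Replicate number moved with the mESC ratios. Snord65 to Snord49b was lower in replicate 1 in 6 of 6 lines. Snord49a to Snord65 was higher in replicate 1 in 5 of 6, Q50 being the exception. In NPC, Snord49a to Snord65 was also higher in replicate 1 in 5 of 6 lines, and Snord65 to Snord49b in 2 of 6. The median log2 difference for Snord49a to Snord65 was 0.028 in NPC and 0.45 in mESC. Library totals also went with replicate number in the mESC lines other than Q20. Replicate 1 had 2134729 to 2360434 counts, and replicate 2 had 642384 (Q50) to 1149003. Genes with a Snord symbol took 46.0% to 51.1% of counts in these replicate 1 libraries and 43.8% to 45.1% in replicate 2. The Q20 mESC libraries had 1795879 and 1901042 counts. Whether depth or anything else that the replicate numbers share bears on the ratios was not tested.

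**Figure D4:**
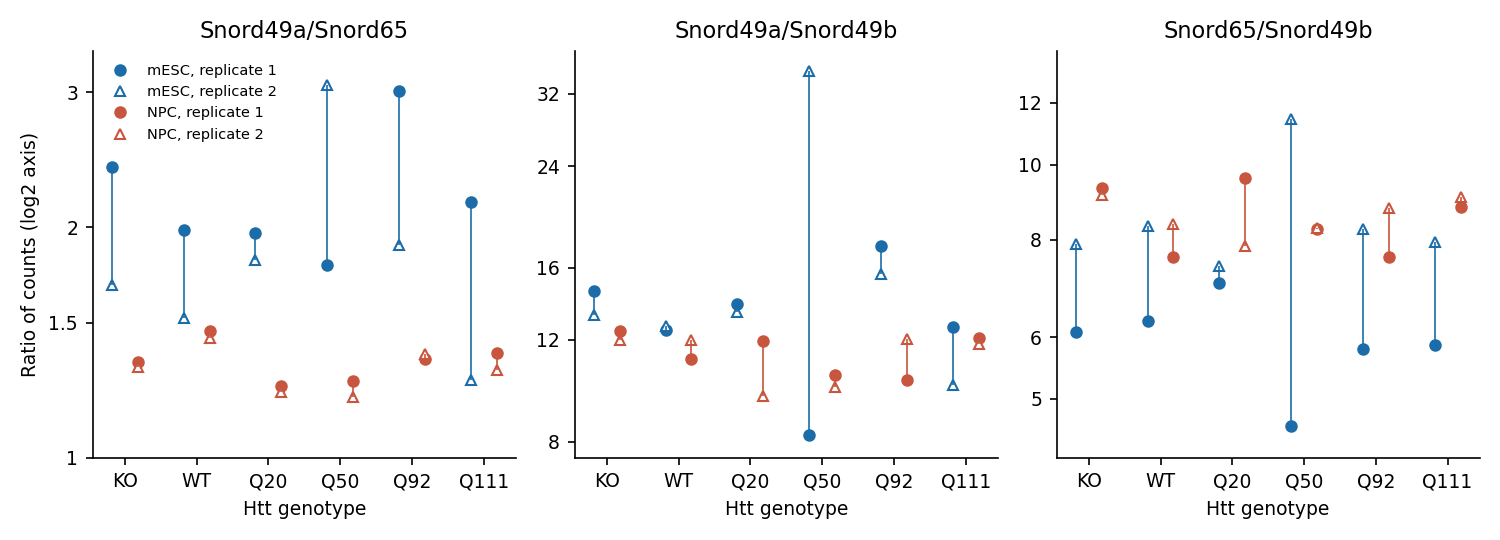
Ratios of counts between members of the same library, on log2 axes, by Htt genotype, in mESC (blue) and NPC (red), with circles for replicate 1 and triangles for replicate 2 joined by a line. NPC libraries lie between 1.20 and 1.46 for Snord49a to Snord65, below all mESC libraries but 1, and the widest mESC line in each panel that involves Snord49b is Q50.

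Among WT and the knock-in lines in NPC, the levels of all 3 members differed. The edgeR test of any difference among these 5 genotypes called 38.8% of 441 genes, and the fitted levels of Snord49a spanned 0.82 on the log2 scale (edgeR adjusted p 9.68e-06), those of Snord65 0.84 (5.65e-05) and those of Snord49b 0.71 (0.00608). These spans were below the median of 1.33 over all genes tested, and each ran from Q92 to Q111, so the Q20 libraries set neither end. The Snord49b call was lost without the second Q111 NPC library (edgeR adjusted p 0.0515), on the Snord scale (0.0570) and with no filter on low counts (0.655). The Snord65 call was also lost with no filter (edgeR adjusted p 0.223), while Snord49a was still called (0.0297). The test uses the same WT libraries as the KO contrast in which Snord49a was known.

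Q111 NPC was the highest line for each member. In CPM with TMM factors taken over the 12 NPC libraries, Snord49a stood at 115054 ± 4734 in Q111, 91643 ± 5603 in WT, 80487 ± 957 in Q20, 67918 ± 1142 in Q50, 65841 ± 5982 in KO and 65228 ± 94.7 in Q92 (SD, n = 2 each). Relative to WT, Q111 was 0.33 higher on the log2 scale for Snord49a, 0.28 for Snord49b and 0.45 for Snord65. Both Q111 libraries lay above all other NPC libraries by share of counts for all 3 members. The share of all genes with this pattern was not computed. The members also moved together in NPC (Pearson's r 0.93 to 0.97), so they are not 3 independent observations. As a share of Snord counts, Q111 was also highest, with a mean of 28.4% for Snord49a and 21.2% for Snord65. The lowest line depended on the scale: by share of counts it was Q50 for each member, whose libraries also had the most Rny1 (32.6% and 40.3%), whereas by CPM with the 12-library factors it was Q92 for Snord49a and Snord65 and KO for Snord49b. With TMM factors over all 24 libraries the lowest line for Snord49b was Q92, at 4961 and 4222 CPM against 4243 and 5578 in KO, which overlapped.

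In order of mean share of counts, the NPC lines for Snord49a were Q50, KO, Q92, Q20, WT and Q111. Of neighbours in this order only KO and Q92 overlapped. The KO libraries (7.02% and 8.13%) also enclosed those of Q20 (7.96% and 8.06%). For Snord65 the order was Q50, Q92, KO, WT, Q20 and Q111, with Q50 apart below and Q111 apart above. For Snord49b only Q111 was apart from its neighbour. The ratio of Snord49a to Snord65 ordered the lines otherwise: both WT libraries (1.46 and 1.43) lay above all others, and the Q20 and Q50 libraries were lowest, between 1.20 and 1.26.

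In mESC no difference among the same 5 genotypes was detected for the members. The edgeR test called 1 of 1766 genes (0.0566%), and the members' spans of 0.79 for Snord49a, 0.75 for Snord49b and 1.04 for Snord65 had edgeR adjusted p of 1.00. Without the first Q50 mESC library the Snord49b span was 2.15 (edgeR adjusted p 0.653), without the first Q111 mESC library the Snord49a span was 1.20 (1.00), and no member was called without any single library. Neighbouring lines overlapped in order of share except Q20 below Q111 for Snord49b and WT below Q20 for Snord65. Under TMM these spans were close to those in NPC or larger. With library totals they were smaller, at 0.56, 0.61 and 0.61 in mESC against 0.90, 0.68 and 0.79 in NPC (Snord49a, Snord49b and Snord65). The pooled replicate SDs, by share of counts, were larger in mESC, for Snord49b largely through Q50. Whether the lines differed more in NPC than in mESC was not tested.

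KO mESC did not differ detectably from WT mESC. The log2 change was 0.04 ± 0.44 for Snord49a, -0.12 ± 0.56 for Snord49b and -0.17 ± 0.38 for Snord65 (SE, edgeR adjusted p 1.00 each). None of 1766 genes was called (0%) by edgeR or by DESeq2, and 18 had an unadjusted p under 0.05 in edgeR. The sign for Snord49a and Snord49b turned when single libraries were left out.

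In NPC the KO contrast is the one that drew attention to Snord49a. In TMM-scaled values the log2 difference of KO from WT was -0.48 ± 0.09 for Snord49a, -0.55 ± 0.14 for Snord49b and -0.35 ± 0.10 for Snord65 (SE), in a fit that called 1.36% of 441 genes, 0.227% higher and 1.13% lower. That count of 6 genes was 0 without the first KO library, 1 without the first WT library and 21 without the second WT library. By share of counts the KO values of Snord49a (7.02% and 8.13%) were under those of WT (8.41% and 9.92%) without overlap, as were those of Snord49b. The groups overlapped for Snord65. The share of all genes without overlap was not computed, so the lack of overlap is a description only. With library totals the values were -0.28, -0.35 and -0.15, and as a share of Snord counts -0.18, -0.26 and -0.05. The median of all genes moved up by 0.20 and 0.29 under these scalings. Rny1 took 27.6% and 15.9% of counts in KO and 22.3% and 13.0% in WT, and its part in the values was not tested.

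No graded relation to repeat number was called for any member. In NPC the log2 change per 10 repeats, fitted to 8 knock-in libraries, was 0.05 ± 0.02 for Snord49a (edgeR adjusted p 0.334), 0.03 ± 0.02 for Snord49b (0.617) and 0.03 ± 0.02 for Snord65 (0.564), where 6.45% of 403 genes were called, 2.73% with a rising and 3.72% with a falling slope. Leaving out single libraries gave slopes of 0.030 to 0.068 for Snord49a, 0.011 to 0.058 for Snord49b and 0.011 to 0.052 for Snord65, none called, and 6 to 26 genes called, lowest without the first Q20 library. Without the Q20 group the Snord49a slope was 0.13 (edgeR adjusted p 0.0386). By share of counts the means were not in order of repeat number, since Q20 stood above Q50 and Q92 for all 3 members. With TMM factors over all 24 libraries the Q20 and Q50 NPC libraries overlapped for each member. In mESC the slopes were -0.03 for each member (edgeR adjusted p 1.00), and 0 of 1487 genes (0%) were called by edgeR or DESeq2, with 48 at an unadjusted p under 0.05 in edgeR. Without the Q20 group the mESC slopes turned positive, at 0.06, 0.07 and 0.11.

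Other Snord genes gave the members a context. Of 39 tested in NPC against mESC, 9 were called higher (23.1%) and 19 lower (48.7%), against 30.4% and 28% of all genes tested, with a median log2 change of -0.31, below the median of -0.02 over all genes. Of these 39, 8 fell further than Snord49a, 11 further than Snord49b and 18 further than Snord65, so the members lay within the range of the family. In the test of any difference among WT and knock-in lines in NPC, 26 of 38 other Snord genes were called (68.4%), against 38.8% of all genes tested, with a median span of 0.81. In KO against WT NPC, 1 of 38 was called lower (2.63%) and none higher, against 1.13% and 0.227% of all genes tested, with a median of -0.20 against 0.08 over all genes.

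The proteins that build box C/D particles were scarcely measured in these small RNA libraries. Of 17 core proteins and assembly factors 15 were in the table and only Nop58, a core protein, was tested in NPC against mESC, where its fragments fell by 2.13 ± 0.35 on the log2 scale (SE, edgeR adjusted p 1.29e-05). Of a list of 15 noncoding snoRNA hosts, 12 were in the table and 6 were tested. Snhg5 fell by 1.79 ± 0.26 (edgeR adjusted p 3.26e-06) and Rian, a host in an imprinted region, by 3.58 ± 0.17 (4.69e-14). Gas5 (-0.43), Zfas1 (-0.74), Snhg8 (-0.12) and Snhg1 (-0.36) were not called. The members' own host passed the filter only in the mESC fits, where KO against WT gave 0.07 ± 0.67 (SE, edgeR adjusted p 1.00).

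The genes whose levels moved most like the members over the 24 libraries, after each cell type's mean was removed, were mostly other abundant snoRNAs. For Snord49a they were Snord65 (Pearson's r 0.76), Gm23301 (0.76) and Snord43 (0.70), with Snord49b in place 5 (0.68). For Snord49b they were Snord91a (0.90), Snord65 (0.87) and Snord37 (0.81), with Snord49a in place 15 of 903 genes. For Snord65 they were Snord91a (0.90), Snord49b (0.87) and Gm25835 (0.78), with Snord49a in place 4. Within NPC alone, Snord49a and Snord65 had r 0.97, and within mESC 0.60, over 12 libraries each. All points share library depth and scaling, so these values are a description. Snord91a took 0.270% to 0.459% of counts in mESC and 0.324% to 0.486% in NPC.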

How the data were processed

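Small RNA was sequenced in 24 libraries, 2 per group. The deposited file holds raw counts per Ensembl gene, not normalized. Per the labels' protocols, RNA was extracted with TRIzol, treated with DNase I and read as single reads of 50 bases on an Illumina HiSeq. Per the submitters' processing notes, CASAVA 1.8, STAR, HTSeq and GRCm38.p6 were used. Their settings, adapter trimming, the treatment of reads with several matches and the use of strand are not given in the sources used here, and 50-base reads do not span a whole member. Columns were assigned by sample descriptions, and the 4 columns named for 89 repeats were matched to the Q92 samples by the growth protocol. Of the gene identifiers, 55154 matched GENCODE M21, and the 181 unmatched held 57 counts.

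The members and the gene lists were chosen with earlier results of these data known. Named genes were the members, their host, the genes inside it and, for each member, the 3 genes with the highest correlation of log2 CPM. Counts were tested with edgeR 4.0.16 in R 4.3.3 (glmQLFit, glmQLFTest, TMM, filterByExpr at min.count 10 and min.total.count 15), with Benjamini-Hochberg adjustment over all genes tested. NPC against mESC used all 24 libraries, contrasts between genotypes the 12 of a cell type, and slopes the 8 knock-in libraries. Ratios used counts plus 0.5 and an exact permutation of cell type within genotype in Python 3.11.15. In KO against WT in NPC the members were part of the fit, but no p-value of theirs is given. Counts of calls over all genes in that contrast can include the members. Alternatives were other scalings, no filter, DESeq2 1.42.0, a replicate block, fits of 4 libraries, leaving out Q20 and leaving out each library. The fits were tested on simulated data with log2 changes of 2 and a single dispersion of 0.1. Of changed genes, 57.3% (KO against WT in mESC, 1717 genes) to 100% (NPC against mESC, 777 genes) were recovered. Of calls, 0% (slope in NPC, 371 genes) to 10.2% (NPC against mESC, 777 genes) were false. The members' changes in the main fits were smaller than 2, so this recovery does not give the power to detect them. P-values measure only the spread between these libraries, which may be partly technical.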

Additional observations from a re-analysis of the deposited data

How the results depend on the processing

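Of 390 tested member results recomputed under an alternative, 358 kept their side of the threshold and, where they have one, their direction. Tests of any difference have no direction. The 390 include comparisons where no member was called (both genotype tests in mESC and both slopes), for which keeping the side says little. Of 33 results of KO against WT in NPC, given without a test, 23 moved by less than the replicate spread. With no filter, NPC against mESC was at -1.55, -1.30 and -0.94. For NPC against mESC, library totals gave -0.021 for Snord65, Snord counts gave 0.074 for Snord49b and 0.37 for Snord65, and leaving out Q20 gave -0.26 for Snord65. For KO against WT in NPC, library totals gave -0.28, -0.35 and -0.15 for Snord49a, Snord49b and Snord65, Snord counts -0.18, -0.26 and -0.048, and no filter -0.85, -0.93 and -0.72. For any difference in NPC, Snord49b was at 0.42 with Snord counts and 0.78 with no filter, and Snord65 at 0.75 with no filter, all not called. The mESC slopes were 0.012 and 0.010 for Snord49b and Snord65 with Snord counts, and 0.061, 0.075 and 0.11 for the 3 members without Q20. The NPC slope of Snord49a without Q20 was 0.13 and called. Without Q20 the ratios to Snord49b were -0.31 (Snord49a) and 0.28 (Snord65). The causes were not tested, beyond the scalings, which change the denominator.

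Leaving out each library in turn gave -0.39 to 0.38 for Snord49a and -0.47 to 0.23 for Snord49b in KO against WT mESC, and -0.68 to -0.44 for Snord49b in KO against WT NPC. It gave 0.60 to 0.83 for Snord49b in any difference in NPC, and -0.059 to 0.0045 and -0.062 to 0.0034 for the mESC slopes of Snord49a and Snord49b. The ratio of Snord49a to Snord49b ranged from -0.49 to -0.14 and that of Snord65 to Snord49b from 0.16 to 0.38. A group left with 1 library was assumed to vary like the others.

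Replicate 1 minus replicate 2 differences correlated between lines by 0.00014 to 0.52 in mESC, over 0.1 in 10 of 15 pairs and at most 0.078 in the pairs with Q20, and over 0.1 in 4 of 15 pairs in NPC. Since not every pair passed 0.1, the numbers were not treated as pairing, although the mESC lines other than Q20 deviated together and the mESC spread includes this. The replicate block changed no member's call (NPC against mESC -0.96, -0.66 and -0.36; any difference in mESC 0.81, 0.98 and 1.07, edgeR adjusted p 0.280, 0.582 and 0.189), and moved the genes called from 1 to 33 for any difference in mESC, 0 to 3 for the mESC slope and 26 to 9 for the NPC slope. No filter gave 2024 genes called in place of 528 for NPC against mESC, 0 in place of 6 for KO in NPC, 8 in place of 1 for any difference in mESC, 112 in place of 171 in NPC, and 2 and 50 for the mESC and NPC slopes. DESeq2 called 18 for KO in NPC, 9 for any difference in mESC and 11 for the NPC slope. For KO in NPC, size factors called 10, library totals and Snord counts 1 each, and the fit of 4 libraries 0, while for any difference in mESC library totals and Snord counts called 2. The NPC slope without Q20 called 17.

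Depth limits the host, with 158 counts in all, more than the members, whose lowest count in a library was 2171.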
